A study of Homo sapiens with 4 samples.

Results

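Glycolysis is the cytosolic pathway that splits glucose into pyruvate and yields ATP, and lactate dehydrogenase then turns pyruvate into lactate and restores the NAD+ that the pathway consumes. Most of its steps are served by several isozymes, the products of different genes, and these differ between tissues: some are found in nearly every cell, others mainly in liver, muscle, neurons or male germ cells. Many transformed lines convert much of their glucose to lactate even with oxygen at hand. Message for 10 glycolysis genes was examined in HEK293 cells, a line derived from embryonic kidney that carries adenovirus DNA. The genes were HK1, HK2, GPI, PFKP, ALDOA, PGK1, ENO1, ENO2, PKM and LDHA, and they were 10 of 17217 named genes on the array.

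The samples were 4 biological replicates of 1 group, untreated HEK293 cells kept in DMEM with 10% FBS, each from its own plate and extraction. There was no second condition, so the first question is whether the message of each enzyme lay above the study's threshold for expression. Others are how closely arrays and probes of a gene gave the same value and which other isozymes of the glycolytic steps were detected. Members were found by the RefSeq accession in each probe name, and all 10 were matched, by 36 probes in 12 targets. A target is the set of probes made for 1 accession, and HK1 and PKM had 2 targets each.

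A level below is the log2 intensity of a gene on an array. The distance is the level minus the baseline of the same array, where the baseline is the mean plus 2 SD of 10 seminal protein genes that the study took to be silent. Among these SPATA5 (AFG2A) and SPATA13 had mean levels of 9.97 and 9.72, and the others lay from 6.53 to 7.25. Both raise the baseline, so a distance below 0 does not show that a message was absent. Genes whose distance, averaged over the 4 arrays, exceeded 0 are called detected. The baselines were 9.47, 9.94, 10.69 and 10.32 on replicates 1 to 4, so the distance of every gene was pushed down on replicate 3 and up on replicate 1. Each probe has its own affinity, and a difference in level between genes is therefore no measure of how many more transcripts of one of them a cell holds.

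Replicate 3 stood apart in technical spread. HK1 and PKM allowed this to be measured, because their targets carried probes whose numbers differed by 1 constant offset, 56 for HK1 and 216 for PKM, as would be seen if the same stretch of transcript had been probed in each target. Over all genes 209 pairs of targets had such an offset, giving 627 pairs of probes. The median absolute difference within a pair was 0.23, 0.21 and 0.27 log2 units on replicates 1, 2 and 4 and 0.60 on replicate 3. Pairs of targets without a constant offset differed by 0.84 to 1.09. The 3 HK1 pairs differed by 0.11, 0.63 and 0.94 on replicate 3, and by at most 0.43 on the other arrays. The 3 PKM pairs differed by 0.17, 0.58 and 0.86 on replicate 3, and by at most 0.26 on the others. Detection of the members, ENO3 and PGK2 is therefore also given without replicate 3.

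**Figure D1:**
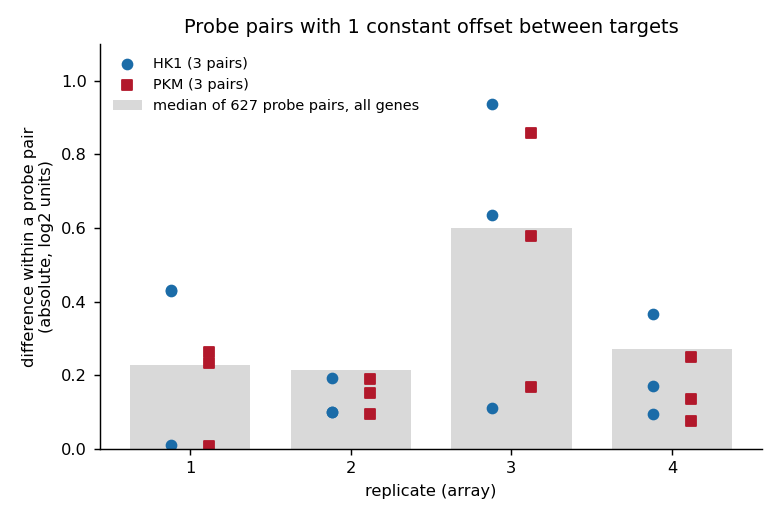
Absolute difference (log2 units) between the probes of a pair that has 1 constant offset between 2 targets of a gene, on each of the 4 arrays. Points are the 3 pairs of HK1 and the 3 pairs of PKM, bars the median of 627 pairs over all genes. The bar of replicate 3, at 0.60, is the tallest, and the largest differences of both genes are on that array.

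All 10 glycolysis genes were detected, and none of their levels fell below the baseline of its array. For comparison, 52.7% of all named genes were detected and 45.0% exceeded the baseline on every array. The one-sided limma test against the baseline, adjusted over all 17217 genes, called all 10 members and 45.9% of all genes. The mean distance of the members ran from 3.92 for HK1 to 5.59 for GPI, with a median of 4.79 log2 units beside a median of 0.26 over all named genes. Without replicate 3 the members were still all above the baseline. On each array every member had a level at or above the percentile of 88.4 among the named genes, the lowest being PGK1 on replicate 3.

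**Figure D2:**
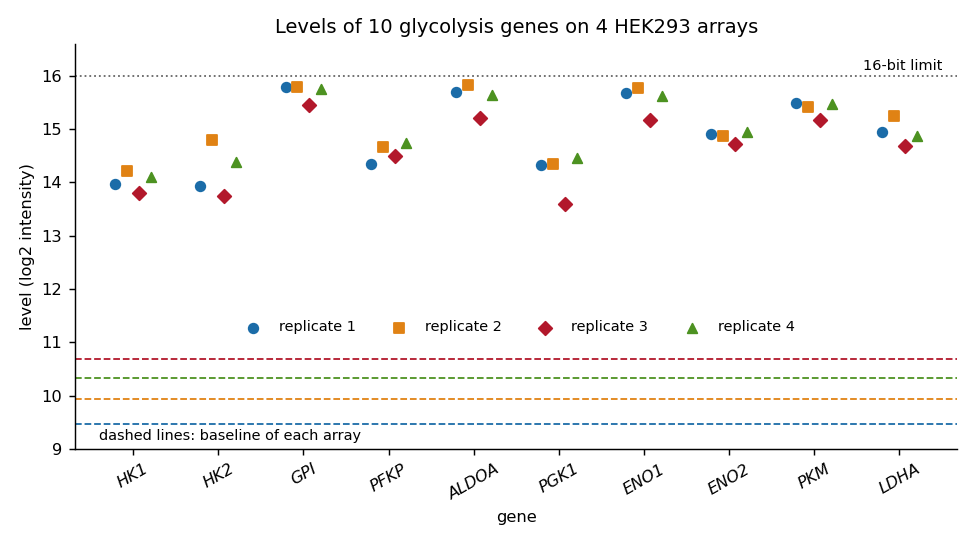
Level (log2 intensity) of the 10 genes on each array, with the baseline of each array as a dashed line of the same colour and the limit of a 16-bit scan, 16 log2 units, as a dotted line. All 40 points lie above all 4 baselines, and replicate 3 is the lowest point for 9 of the 10 genes.

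The pathway opens with hexokinase, which traps glucose in the cell as glucose 6-phosphate. HK1, the form found in most tissues and known for binding to mitochondria, had levels of 13.97, 14.22, 13.80 and 14.11 on replicates 1 to 4. Its mean distance was 3.92 ± 0.62 log2 units (SD, n = 4). HK2, the form known from muscle, fat and many tumour lines, had levels of 13.93, 14.80, 13.75 and 14.38 and a mean distance of 4.11 ± 0.77 (SD, n = 4). The levels of both hexokinases were higher on replicates 2 and 4 than on 1 and 3, and HK2 varied more than any other member, with an SD of 0.47 log2 units in its level. All 3 probes of HK2 shared that order, and the lowest of them gave 12.41, 13.87, 11.90 and 13.11. GPI, which isomerises glucose 6-phosphate to fructose 6-phosphate, had levels of 15.79, 15.80, 15.45 and 15.75 and stood 5.59 ± 0.67 log2 units above the baseline (SD, n = 4).

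Phosphofructokinase commits the sugar to glycolysis and is the main point of control. PFKP, its platelet form, had levels of 14.34, 14.67, 14.49 and 14.73 and a mean distance of 4.45 ± 0.47 (SD, n = 4). It was the only member whose lowest level was on replicate 1 and not on replicate 3. Aldolase then splits fructose 1,6-bisphosphate into triose phosphates. ALDOA, the form of muscle and most other tissues, had levels of 15.71, 15.84, 15.22 and 15.64, and its mean distance was 5.50 ± 0.75 (SD, n = 4). Its 3 probes were the closest of any member, with means within 0.05 log2 units of each other.

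The later steps yield ATP. PGK1, phosphoglycerate kinase, makes the first ATP of the pathway and had levels of 14.32, 14.35, 13.60 and 14.46, with a mean distance of 4.08 ± 0.83 (SD, n = 4). Its probes were the furthest apart of any member, with means from 11.37 to 15.13 log2 units. The dimmest gave 11.84, 12.51, 9.46 and 11.67, and its value on replicate 3 was below that array's baseline, the only one of the 36 member probes to be so on any array. With every gene represented by its lowest probe, PGK1 stood at 2.55 log2 units (limma adjusted p = 0.00436). For PGK1 this was the highest adjusted p under any alternative run.

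Enolase turns 2-phosphoglycerate into phosphoenolpyruvate, and both forms on the list were detected. ENO1, alpha-enolase, is found in nearly every cell and had levels of 15.68, 15.77, 15.17 and 15.63. It stood 5.46 ± 0.75 log2 units above the baseline (SD, n = 4). ENO2, gamma-enolase, is known as neuron-specific enolase and used as a marker of neurons and neuroendocrine cells. Its levels were 14.90, 14.87, 14.72 and 14.94, and its SD of 0.10 was the smallest of the members. ENO2 stood 4.75 ± 0.59 log2 units above the baseline (SD, n = 4), and each of its 3 probes lay above the baseline on all 4 arrays, with means of 13.62, 15.60 and 14.69.

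PKM, pyruvate kinase of muscle and most other tissues, makes the last ATP of the pathway. Its gene gives the isoforms PKM1 and PKM2, which differ by 1 exon. The targets of PKM had mean levels of 15.33 ± 0.31 and 15.44 ± 0.05 log2 units (SD, n = 4). The first gave 15.59, 15.34, 14.89 and 15.50, and the second 15.38, 15.50, 15.45 and 15.43. They parted on replicate 3 alone by more than 0.5 log2 units. Since their probe numbers had 1 constant offset, the targets could not be read as measures of different isoforms, and probe sequences were not used here. The gene stood 5.28 ± 0.64 above the baseline (SD, n = 4). LDHA, the lactate dehydrogenase subunit that dominates in muscle, had levels of 14.94, 15.25, 14.68 and 14.87 and a mean distance of 4.83 ± 0.69 (SD, n = 4).

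**Figure D3:**
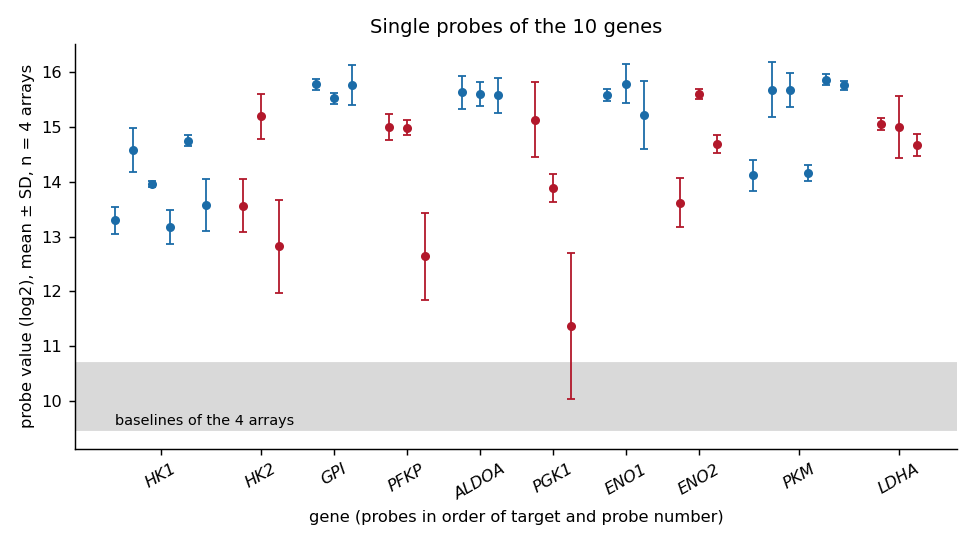
Value of each single probe of the 10 genes (log2, mean ± SD over 4 arrays), grouped by gene and ordered by target and probe number. The probes of ALDOA and GPI lie close together near the top of the scale, those of PGK1 span from 11.37 to 15.13, and the grey band marks the range of the 4 baselines, from 9.47 to 10.69.

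Many of these values were near the upper end of the scale, where differences can be compressed. Compression itself was not measured here. The highest probe value on the arrays was 15.99, and a 16-bit scan cannot give more than 16. Of the 36 member probes 13, 16, 5 and 12 lay within 0.5 log2 units of the highest value of replicates 1 to 4. Over all probes this was so for 0.84% to 1.27%. The means of all 3 probes of GPI and of ALDOA were above 15.5, so no order among the brightest members can be read from these values.

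The 4 arrays were not equally high for these genes. The level was lowest on replicate 3 for 9 of the 10 members, and highest on replicate 2 for 6, on replicate 4 for 3 and on replicate 1 for 1. Among all named genes 21.3% were lowest on replicate 3. Among the 1323 genes with a mean level no lower than that of HK1 the share was 43.0%. Replicates 3 and 4 had the same distribution of values, and all 10 members were lower on 3 than on 4, by a median of 0.31 log2 units. Of the 1323 genes 51.9% were lower on 3 than on 4. The larger technical spread of replicate 3 moved with this difference, and its part in it was not tested. The median SD of a member's level over the arrays was 0.21 log2 units, beside 0.42 over all named genes and 0.23 over the 1323. Both of replicates 2 and 4 were above both of 1 and 3 for HK1, HK2, PFKP and PGK1, 4 of 10 members, beside 18.5% of all named genes.

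Other genes of the glycolytic steps, not among the 10, were then set against the same baseline. Some are isozymes at a step of the 10 genes. TPI1, GAPDH, GAPDHS and the phosphoglycerate mutase genes PGAM1, PGAM2, PGAM4 and BPGM belong to steps with none of the 10. The counts that follow are over both kinds together. Of 21 listed 20 were matched, and 11 of these (55.0%) were detected, beside 52.7% of all named genes. Of the 11, 9 exceeded the baseline on every array and limma called 10. At the head of the pathway the hexokinase genes HK3 and HKDC1 were below the baseline on every array, at -2.33 ± 0.89 and -3.05 ± 0.41 log2 units (SD, n = 4 for each). ADPGK, which phosphorylates glucose with ADP in place of ATP, stood at 3.53 ± 0.80 (SD, n = 4).

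All 3 phosphofructokinase genes were detected. PFKL, the liver form, stood at 4.48 ± 0.40 log2 units and PFKM, the muscle form, at 3.61 ± 0.71 (SD, n = 4 for each). Beside ALDOA, ALDOC, the aldolase of brain, lay at -0.45 ± 0.90 (SD, n = 4). ALDOC was above the baseline on replicate 2 alone, by 0.74. TPI1, the triose phosphate isomerase, stood at 5.03 ± 0.87 and GAPDH, the next enzyme and a widely used reference gene, at 4.79 ± 0.71 (SD, n = 4 for each).

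Isozymes known from male germ cells gave mixed values. LDHAL6A lay at -3.04 ± 0.73 and LDHAL6B at -2.78 ± 0.21 log2 units, both below the baseline on every array (SD, n = 4 for each). PGK2 had a mean of -0.66 ± 1.47 but was above the baseline on replicates 1 and 2, by 0.40 and 0.56, and LDHC had a mean of -1.15 ± 1.32 but was above it on replicate 1, by 0.77 (SD, n = 4 for each). The baseline is itself built on genes of the male reproductive tract. GAPDHS, the sperm form of GAPDH, had a mean distance of 0.26 ± 0.30 (SD, n = 4, limma adjusted p = 0.462) and was above the baseline on 3 of 4 arrays. The 5 germ cell markers PRM1, PRM2, TNP1, DDX4 and ACRV1 all lay below the baseline, from -3.57 to -2.26. PGAM4 stood at 3.79 ± 0.77 (SD, n = 4), and it is a copy of PGAM1 with nearly the same sequence. Whether the probes of one also read message of the other was not tested. PGAM1 stood at 4.74 ± 0.92 and BPGM, which makes 2,3-bisphosphoglycerate, at 3.38 ± 0.51 (SD, n = 4 for each).

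The muscle forms gave mixed values. PGAM2 lay at -1.49 ± 0.73, and ENO3, beta-enolase, at 1.17 ± 1.05 log2 units (SD, n = 4, limma adjusted p = 0.00111). ENO3 was above the baseline on replicates 1, 2 and 4 and at -0.37 on replicate 3. Without replicate 3 it stood at 1.68 (limma adjusted p = 1.14e-05). These p-values rest on a standard error common to all genes of a fit and not on the spread of ENO3. On all 4 arrays ENO3 no longer passed the test when probes were averaged on the log2 scale, at 0.70, or taken by their median, at 0.76. All 4 matched muscle markers lay below the baseline, from -3.49 to -1.79. PKLR, the pyruvate kinase of liver and red cells, lay at -2.09 ± 1.42, and the 5 hepatocyte markers from -3.34 to -3.15. LDHB, the lactate dehydrogenase subunit that dominates in heart, stood at 5.19 ± 0.90 (SD, n = 4), so that message for both common subunits was detected.

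**Figure D4:**
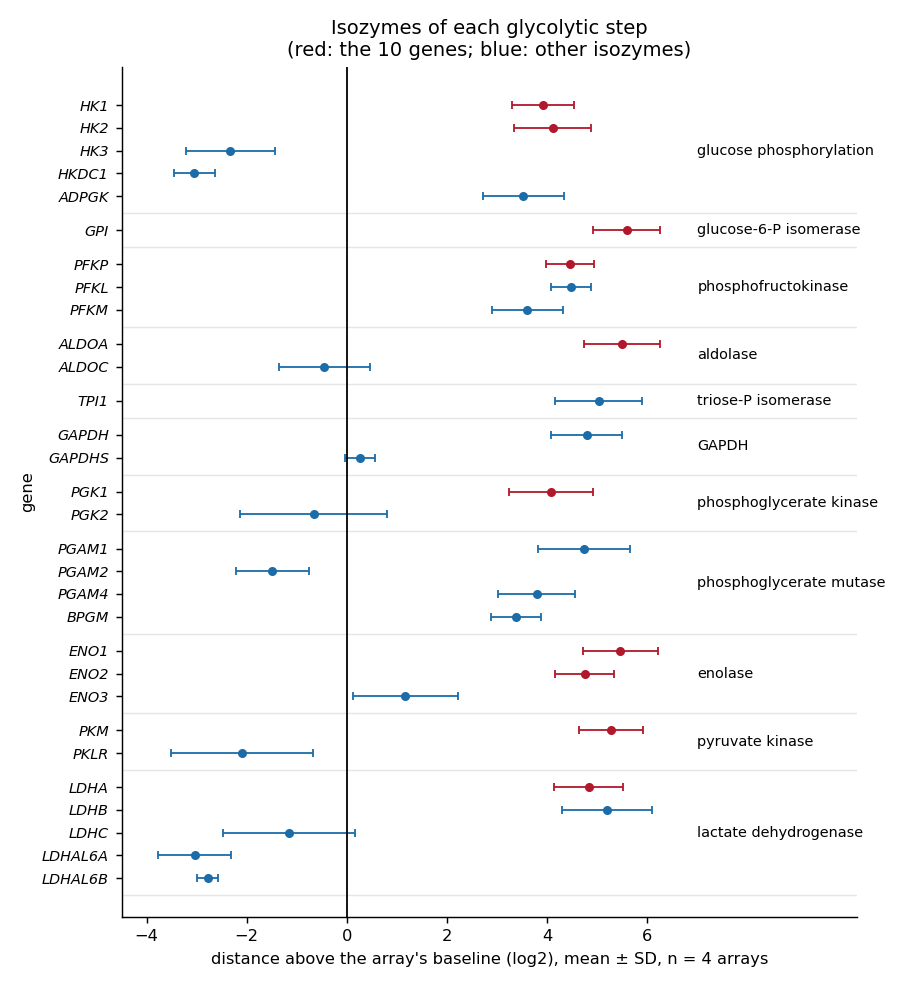
Mean distance to the baseline (log2, ± SD over 4 arrays) of the 10 genes (red) and of 20 other matched isozymes (blue), grouped by glycolytic step. Every step has at least 1 detected gene, and the forms known mainly from liver or male germ cells lie at or below 0 except for PFKL, GAPDHS and PGAM4.

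For ENO2 the markers of neurons were read beside it. Of 12 listed 11 were matched and 6 (54.5%) were detected, beside 52.7% of all named genes. One of the 6, NEFM, a neurofilament gene outside the rule for named genes, was above the baseline on replicates 1 and 3 alone. Its levels were 13.57, 8.32, 13.09 and 8.08 on replicates 1 to 4, and its mean distance was 0.66 ± 3.08 (SD, n = 4). Its limma adjusted p of 0.0644 rests on a standard error common to all genes and not on this spread. The neurofilament gene NEFL stood at 4.01, the synaptic vesicle gene SYP at 3.09 and the internexin gene INA at 2.41 log2 units above the baseline. STMN2, DCX and ELAVL4 lay below it, at -3.12, -3.06 and -2.91. Of the 12 kidney markers, which the origin of the line would name, 1 was detected, LRP2 at 1.27, and the other 11 lay from -3.65 to -1.42, below the baseline.

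Beyond the enzymes, glucose enters cells through SLC2A carriers and lactate leaves through SLC16A carriers. Of 21 transporter genes 7 were detected. SLC16A1, a lactate carrier, stood at 4.04 and its partner protein BSG at 4.57 log2 units, while the lactate carrier SLC16A3, outside the rule for named genes and chosen after its value was seen, lay at -0.72 and below the baseline on all 4 arrays. SLC2A14 stood at 2.30 and SLC2A3, whose sequence is close to it, at 0.47 (limma adjusted p = 0.191), and SLC2A14 was the higher on every array. Whether the probes of one also read message of the other was not tested. SLC2A1, the carrier of most dividing cells, stood at 2.12 ± 0.61 (SD, n = 4), and it too was named after its value was seen. The glucose carrier of liver and beta cells, SLC2A2, lay at -3.55, the kidney glucose carrier SLC5A2 at -3.31 and SLC16A8, a lactate carrier of the retina, at -3.28. Of the 6 regulators 2 were detected. PFKFB3, which makes the activator fructose 2,6-bisphosphate, stood at 3.30 and TIGAR, which removes it, at 0.45 (limma adjusted p = 0.207). TIGAR exceeded the baseline on 3 of 4 arrays.

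Pyruvate enters mitochondria and is turned into acetyl-CoA by pyruvate dehydrogenase, and 12 of 15 genes of that step were detected, with PDHA1, its catalytic subunit, at 4.73 log2 units. PDHA2, the germ cell form, lay at -3.11. The kinase PDK4, 1 of those that switch the complex off, lay at -1.45. The other kinases PDK1, PDK2 and PDK3 stood at 0.18, 2.05 and 1.81. PDK2 and PDK3 exceeded the baseline on all 4 arrays and PDK1 on 2. These 3 are outside the rule for named genes and were named after their values were seen. The pentose phosphate pathway branches from glucose 6-phosphate to make NADPH and ribose, and 8 of 10 genes were detected, with PGD at 5.23, TKT at 4.87 and TALDO1 at 4.80. Its other 2 genes were TKTL1 at -0.94 and TKTL2 at -3.42. Gluconeogenesis runs the pathway in reverse in liver and kidney, and 4 of 9 genes were detected. G6PC3, the widely found glucose-6-phosphatase, stood at 4.41 and SLC37A4 at 2.68, while G6PC2, FBP2 and FBP1 lay at -3.22, -2.67 and -2.67. Of 10 genes of the hypoxia-inducible factor (HIF) pathway, which drives glycolysis genes when oxygen is short, 8 were detected, with HIF1A itself at 3.95. EGLN2 stood at 3.79 and HIF1AN at 2.68, and both restrain HIF, so the count is not one of drivers alone. EGLN3 and HIF3A lay at -2.53 and -2.46.

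**Figure D5:**
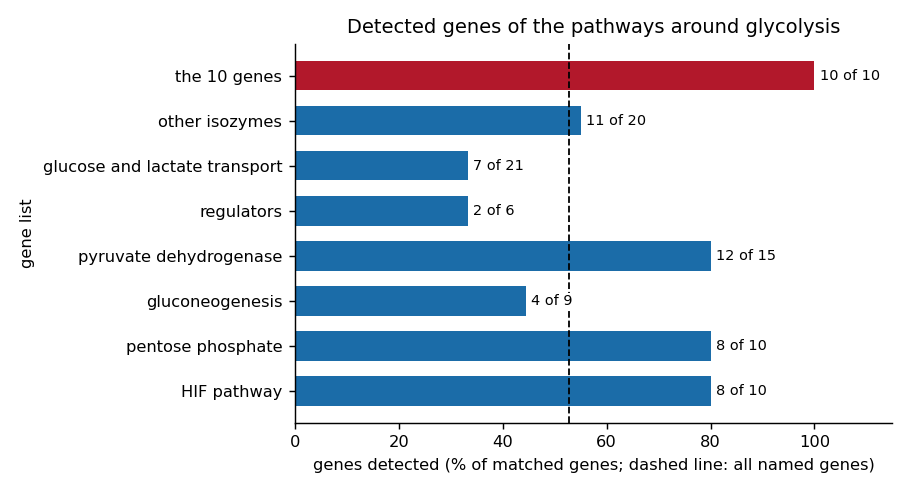
Share of matched genes detected (%), for the 10 genes and for each list of genes around glycolysis, with the counts at the bars. The dashed line is the share over all named genes, 52.7%, and the lists lie on both sides of it, from 33.3% for transporters and regulators to 80.0% for pyruvate dehydrogenase, pentose phosphate and HIF genes.

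The promoters of the 10 genes were read for what they share in sequence, using the 250 bases before the start of each gene in RefSeq (GRCh38.p14, 1 start per gene). The letters ACGTG are 1 form of the core that HIF binds, and no other form was searched. This form was searched on both strands, as ACGTG and CACGT. It was present in 6 of 10 member promoters (HK2, GPI, ALDOA, PGK1, ENO2 and LDHA), beside 21.0% of 13807 promoters of named genes. The GC box GGGCGG, searched also as CCGCCC, was present in 6 of 10, beside 57.6%. The core overlaps with the E-box CACGTG, which was present in LDHA alone, beside 7.92% of all promoters. The median GC content of the member promoters was 70.4%, beside 62.8%, and the counts were not adjusted for it. A match is a run of letters and not a binding site, and no hypoxic sample was measured. The 3 promoters with more than 1 run of the core are shown because they hold most of the matches. Capitals mark this form of the core on either strand, and each promoter reads 5′ to 3′ toward the gene.
LDHA, chr11:18394313-18394562, plus strand: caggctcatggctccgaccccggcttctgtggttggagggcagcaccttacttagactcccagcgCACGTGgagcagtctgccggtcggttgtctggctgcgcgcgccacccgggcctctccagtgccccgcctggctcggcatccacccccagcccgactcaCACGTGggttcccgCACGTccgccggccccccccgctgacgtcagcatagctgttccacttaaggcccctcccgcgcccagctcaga
PGK1, chrX:78103998-78104247, plus strand: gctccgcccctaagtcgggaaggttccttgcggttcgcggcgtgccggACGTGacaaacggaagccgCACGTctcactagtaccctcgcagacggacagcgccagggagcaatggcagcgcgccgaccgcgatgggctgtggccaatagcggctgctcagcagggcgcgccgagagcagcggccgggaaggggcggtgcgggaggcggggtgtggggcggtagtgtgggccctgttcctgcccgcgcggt
HK2, chr2:74833877-74834126, plus strand: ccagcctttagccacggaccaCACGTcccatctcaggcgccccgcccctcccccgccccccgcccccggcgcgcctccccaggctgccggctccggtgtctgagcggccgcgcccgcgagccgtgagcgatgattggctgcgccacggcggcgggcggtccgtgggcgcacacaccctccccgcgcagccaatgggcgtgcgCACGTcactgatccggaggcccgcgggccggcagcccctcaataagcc
The runs in LDHA began 185, 87 and 73 bases before the start, those in PGK1 202 and 183 bases before it, and those in HK2 229 and 48 bases before it. HK1, PFKP, ENO1 and PKM had no match to ACGTG or CACGT in this window. The HK1 window had the lowest GC content of the 10, 46.8%. Only 1 start of each gene was read, and which start HEK293 cells use was not tested. A match or its lack is therefore a trait of the window and may not be one of the promoter in use. All 10 members were detected, so a match could not be set against detection.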

How the data were processed

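HEK293 RNA was labelled with Cy3 and hybridised to 4 NimbleGen arrays of long oligonucleotide probes. The deposited table holds log2 values, 1 for each probe on each array. Per the labels RMA was among the tools used, with no settings given, and a background correction is not given in the sources used here. After sorting, replicates 1 and 2 had the same values to within 0.01 at 99.97% of ranks, 3 and 4 at 99.99%, and 1 and 3 at 1.23%, the form of quantile normalization in pairs. Accessions were matched without versions to RefSeq gene names of GRCh38.p14.

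Probes of a target were averaged on the linear scale and the mean was taken back to log2, and targets of a gene were then averaged. Distances were tested against 0, one-sided, with limma 3.58 in R 4.3 and Benjamini-Hochberg adjustment at 0.05 over 17217 genes. The code was also run on simulated data with an equal SD for all genes and no shift between arrays. That run cannot show how a baseline error shared by the genes of an array acts on the calls. In the main fit the prior degrees of freedom were infinite, so each gene took a standard error of 0.351 whatever its own spread. A baseline shift moves all genes together. The smallest p that exact sign flips of 4 arrays allow is 0.0625. Of 11 seminal controls 10 were matched. The members and lists were chosen with earlier results of these data known. All members and listed isozymes could be named, and up to the 3 highest and 3 lowest genes of each other list. Alternatives changed the controls, the SD multiple, the probe and target summary, the normalization, the arrays used and the limma fit. Some isozymes are not reported here. No raw intensities were used, and each mean and SD over the arrays in the main run rests on 4 arrays.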

Additional observations from a re-analysis of the deposited data

Results flagged for a closer look

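The level and the distance of 30 genes were looked at for an array far from the rest, 60 values in all. In 5 of them the gap between one array and its nearest neighbour, as a share of the whole range, passed Dixon's 95% critical value, and chance marks about 1 in 20. For the level of GPI the share was 0.857, with replicate 3 at 15.45 and the other arrays between 15.75 and 15.80. For the level of PGK1 it was 0.842, with replicate 3 at 13.60 and the other arrays between 14.32 and 14.46. For the level of TPI1 it was 0.965, with replicate 3 at 14.54 and the other arrays between 15.32 and 15.35. For the distance of GAPDH it was 0.906, with replicate 1 at 5.85 and the other arrays between 4.37 and 4.51. For the distance of GAPDHS it was 0.847, with replicate 2 at -0.18 and the other arrays between 0.36 and 0.46. The baseline was lowest on replicate 1, and the spread within probe pairs was largest on replicate 3. The part of either in these values was not tested.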

How the results depend on the processing

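The lowest-probe summary was chosen after the data had been examined. Every member kept its detection and its limma call under all 19 alternatives run, which gave 190 values. All 10 stayed above the baseline on every array used, except that with the lowest probe the count was 9, without PGK1. The median distance of the members was 3.47 with a baseline of 3 SD, 6.11 with 1 SD, 7.12 without SPATA5 and SPATA13, 6.87 with olfactory receptor controls and 6.50 with the median and scaled MAD. Values near the top of the scale limit how well levels can be ordered.

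Isozymes near the baseline changed sign with its height, and by construction a lower baseline raises every gene. ENO3 lay at -0.15 with 3 SD and at -0.51 with the lowest probe, and fell to 0.50 and out of significance on replicates 3 and 4 alone. GAPDHS, which did not pass the test at 0.26, lay at -1.06 with 3 SD but passed it at 1.58 with 1 SD, 2.59 without SPATA5 and SPATA13, 2.34 with olfactory receptor controls and 1.96 with the median and scaled MAD. With 1 SD ALDOC stood at 0.87 and PGK2 at 0.66, and both passed the test. LDHC, at 0.16, did not. Without SPATA5 and SPATA13 ALDOC stood at 1.88, PGK2 at 1.67, PGAM2 at 0.83 and LDHC at 1.17, and all of these passed. PKLR, at 0.23, did not. With olfactory receptor controls ALDOC stood at 1.63, PGK2 at 1.42, PGAM2 at 0.59 and LDHC at 0.93, and all of these passed. With the median and scaled MAD ALDOC stood at 1.26 and PGK2 at 1.05, and both passed. PGAM2, at 0.21, and LDHC, at 0.55, did not. On replicates 1 and 2 alone PGK2 stood at 0.48 and did not pass, and without replicate 3 it lay at -0.01. Over all settings the count of other isozymes detected ran from 9 with 3 SD to 16 without SPATA5 and SPATA13. That of transporters ran from 5 to 13, that of regulators from 1 to 4 and that of gluconeogenesis genes from 2 with 3 SD to 5. The whole array moved too. Of all 17217 named genes limma called 7904 in the main run, 4922 with 3 SD and 11803 without SPATA5 and SPATA13. No paired analysis was possible because the design holds 1 group.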
